A study of Saccharomyces cerevisiae with 4 samples.

Results

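The RPS genes of Saccharomyces cerevisiae encode the proteins of the small subunit (40S) of the cytoplasmic ribosome. They were chosen by name, RPS0A to RPS31, which gave 56 genes of the 6209 in the count table, 8 of them single-copy genes and 48 forming 24 pairs of an A and a B copy. The strain was BY4741, a haploid MATa laboratory line that carries deletions at his3, leu2, met15 and ura3 in both groups. One group was left untreated, and the other was exposed to 3 µg/mL thiolutin, a dithiolopyrrolone antibiotic that acts on RNA polymerases and binds metal ions, for 3 h in rich medium. RNA carrying a poly(A) tail was sequenced in 2 libraries per group. The p-values below set the difference between groups against the spread between these libraries. That spread was estimated in part across all genes or, for copy ratios, across all pairs. The libraries were labelled as biological replicates.

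The small subunit binds the mRNA and holds the decoding centre, where codon and anticodon are read. Its proteins sit on the 18S rRNA in a head, a body and a platform, and are made in near equal numbers of molecules. In yeast most of them come from a pair of genes kept since an ancient genome duplication, whose proteins are identical or nearly so, and their transcription is driven by Rap1 with Fhl1, Ifh1 and Sfp1.

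The libraries held 30205335 and 29962621 untreated and 17038991 and 21440741 thiolutin reads in genes. STE2, the alpha-factor receptor of a cells, stood at 14538 to 16621 untreated and 3796 to 3999 thiolutin normalised reads, and STE3, its alpha-cell counterpart, at 147 or less in all libraries. Of the other alpha-cell markers MF(ALPHA)1 and MF(ALPHA)2 stood at 168 or less, but SAG1 at 753.2 to 985.5 normalised reads. The his3 deletion of this strain removes part of the gene, so the reads counted for HIS3 (962 to 2274) check nothing, and the other deleted genes were not analysed here. The lowest count of any RPS gene in any library was 1520 reads.

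Several pairs differ at few coding positions, which matters for reading their counts. The first 90 bases of the spliced coding sequence (R64, RefSeq, 5′ to 3′) are shown for RPS27, the least alike pair, and for RPS4, one of the most alike. Capitals mark the positions at which the copies differ, 9 in RPS27 and 2 in RPS4. The genes lie at chrXI:158613-159212 (plus strand, RPS27A), chrVIII:147871-148669 (minus, RPS27B), chrX:702027-703068 (minus, RPS4A) and chrVIII:504476-505530 (minus, RPS4B).
RPS27A: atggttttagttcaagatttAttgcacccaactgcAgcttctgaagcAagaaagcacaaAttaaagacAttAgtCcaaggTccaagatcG
RPS27B: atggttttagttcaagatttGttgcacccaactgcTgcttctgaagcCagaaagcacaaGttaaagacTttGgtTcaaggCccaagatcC
RPS4A: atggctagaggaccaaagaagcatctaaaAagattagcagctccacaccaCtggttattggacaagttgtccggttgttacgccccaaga
RPS4B: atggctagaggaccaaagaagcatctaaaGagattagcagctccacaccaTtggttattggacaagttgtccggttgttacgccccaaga

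Over whole coding sequences the copies of the 24 pairs were 84.3% (RPS27) to 99.2% (RPS6) identical, with a median of 92.7%. RPS6A and RPS6B shared 72.1% of their windows of 50 bases, RPS4A and RPS4B 46.8% and RPS24A and RPS24B 38.2%, and 26 RPS genes shared no such window with the coding sequence of any other gene. How reads that fit both copies were counted is not given in the sources used here, so the split between copies is least certain for these pairs.

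Of the reads counted in untreated cells, 4.78% (95% Wilson interval 4.776 to 4.791) and 5.47% (5.460 to 5.476) fell in RPS genes, and of those counted after thiolutin 3.51% (3.502 to 3.519) and 3.49% (3.487 to 3.502). The intervals cover counting error only. Both thiolutin libraries were lower. When the 100 most counted genes outside the RPS set were left out of the total, the shares were 6.63% and 7.44% against 6.74% and 6.63%, and the groups overlapped. After scaling by trimmed means of M values (TMM), which sets the library scale on the bulk of genes, the summed RPS level was 1029754 and 1167373 normalised reads untreated and 1135133 and 1124133 with thiolutin, again overlapping. The second untreated library stood above the first, with a median ratio over the RPS genes of 1.14 against 0.995 over all genes, while the thiolutin libraries differed by a median ratio of 0.990.

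With thiolutin, 12 RPS genes rose, 14 fell and 30 did not pass the test (quasi-likelihood test of edgeR, adjusted p under 0.05 by Benjamini-Hochberg over all 5937 genes tested). Of all genes tested 63.6% changed, 31.2% upward and 32.4% downward, and 26 of the 56 RPS genes did. A log2 change of at least 1 was reached by 3 RPS genes upward and 3 downward, against 26% of all genes in either direction. The median log2 fold change of the RPS genes was -0.035, near the -0.041 of all genes, and single genes ran from -1.06 (RPS26B) to 1.49 (RPS20). The groups did not overlap for 44 of the 56 genes, compared with 84.6% of all genes. In bulk RNA, less RNA per cell and fewer cells of a kind cannot be told apart.

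The direction depends on the scale for the smaller changes. On the scale of total counts the median of all genes moved to -0.63 and that of the RPS genes to -0.62. There 42 RPS genes fell and 4 rose, RPS20, RPS31 and RPS23A among them, beside 3605 lower and 965 higher of all 5937 genes tested. Of the 12 genes that rose on the TMM scale, RPS6A, RPS24A, RPS25B, RPS28A and RPS29A had log2 fold changes of -0.18, -0.0041, -0.0045, -0.039 and -0.012 on total counts and did not pass the test there. RPS9A, RPS21A and RPS23B stayed above 0 (0.040, 0.14 and 0.32) but did not pass there either. The fold changes that follow are on the TMM scale.

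**Figure D1:**
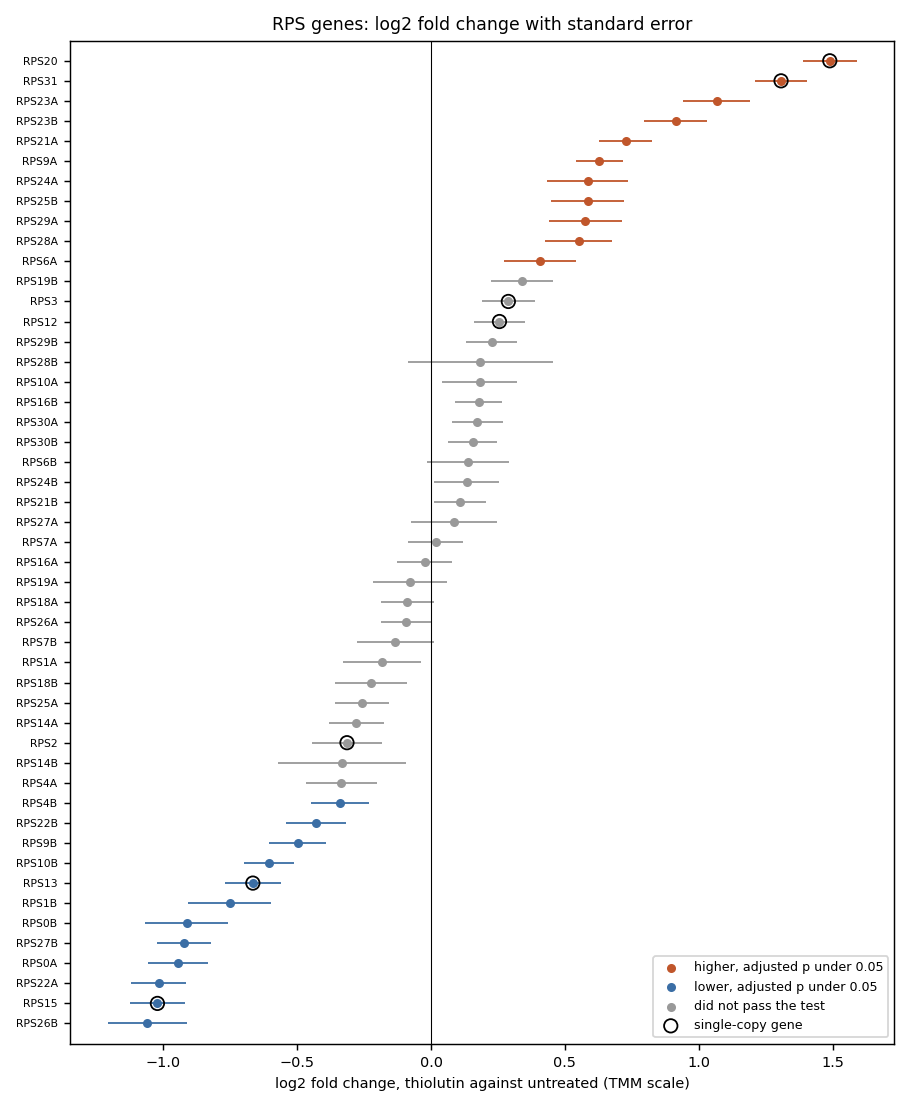
The log2 fold change of thiolutin against untreated libraries (TMM scale, x axis) is plotted for 49 of the 56 RPS genes, in order, with its standard error as a line; circles mark the single-copy genes. Of all 56 genes 12 rose and 14 fell, from 1.49 for RPS20 to -1.06 for RPS26B, and on total counts 5 of the 12, RPS6A, RPS24A, RPS25B, RPS28A and RPS29A, had a value below 0.

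Each of the 8 single-copy genes is the only source of its protein. RPS20 (YHL015W, chrVIII:75412-75777, plus strand) encodes uS10, a head protein that the ligase Hel2 marks with ubiquitin on collided ribosomes. It had 51629 and 52491 normalised reads without thiolutin and 144681 and 147734 with it, a 2.81-fold rise (log2 1.49 ± 0.10 SE, adjusted p = 0.00037 by edgeR). Both thiolutin libraries lay far above both untreated ones. Per kb of coding sequence RPS20 had the highest level of the single RPS genes both in untreated cells (142239 normalised reads per kb) and in treated cells (399474). RPS31 (YLR167W, chrXII:498947-499405, plus strand) encodes eS31, made as a fusion with ubiquitin, and went from 41238 and 41255 to 103377 and 100840 normalised reads, 2.48-fold (log2 1.31 ± 0.10 SE, adjusted p = 0.00047). Its untreated libraries were nearly equal, and the groups did not overlap.

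RPS15 (YOL040C, chrXV:253149-253577, minus strand) encodes uS19, a head protein needed for export of the 40S precursor from the nucleus. It stood at 39518 and 42625 normalised reads untreated and 20835 and 19612 with thiolutin (log2 -1.02 ± 0.10 SE, adjusted p = 0.00099 by edgeR). RPS13 (YDR064W), for uS15 of the body, had 22475 and 24740 against 15349 and 14417 (log2 -0.67 ± 0.10 SE, adjusted p = 0.0039). In both genes the thiolutin libraries lay wholly below the untreated ones. RPS13 did not pass the test when thiolutin replicate 1 (adjusted p = 0.080) or thiolutin replicate 2 (0.11) was left out.

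Smaller differences were found in RPS2, RPS3 and RPS12. RPS3 (YNL178W), for uS3 at the mRNA entry, had 26722 and 29266 untreated and 34354 and 34049 thiolutin normalised reads (log2 0.29 ± 0.10 SE, adjusted p = 0.053 by edgeR). RPS12 (YOR369C), for eS12 of the beak of the head, had 25957 and 27488 against 32293 and 31519 (log2 0.26 ± 0.10 SE, adjusted p = 0.064). RPS2 (YGL123W), for uS5, which lines the mRNA entry and bears on decoding accuracy, had 42244 and 51796 against 37929 and 37719 (log2 -0.31 ± 0.13 SE, adjusted p = 0.087). Their groups did not overlap, yet none of these 3 passed the test, and on total counts the values of RPS3 and RPS12 turned to -0.30 and -0.33. With DESeq2 in place of edgeR both passed (adjusted p = 0.030 and 0.046).

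**Figure D2:**
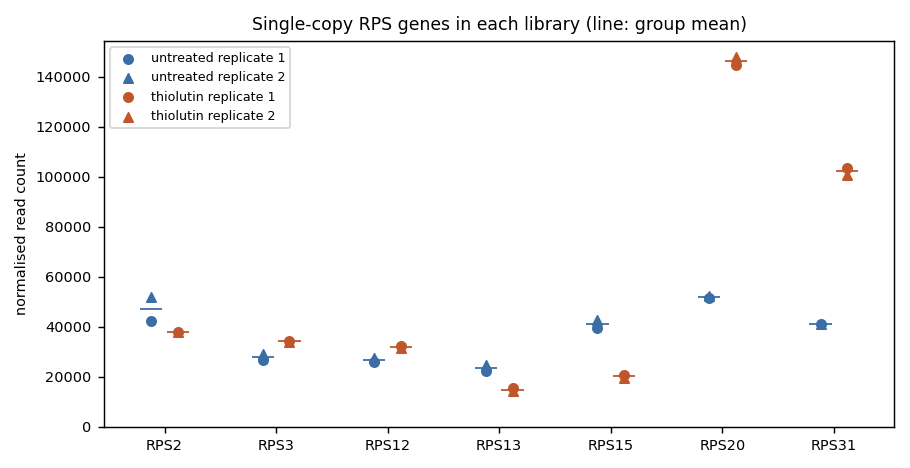
Normalised read counts (y axis, from 0) are plotted for 7 single-copy RPS genes in each untreated and thiolutin library, with a line at each group mean. RPS20 and RPS31 stand at 100840 reads or more in both thiolutin libraries, RPS13 and RPS15 lie below their untreated libraries, and RPS2, RPS3 and RPS12 moved less and did not pass the test.

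Among the paired genes, both copies of RPS23 rose together. They encode uS12 of the decoding centre. RPS23A (YGR118W) had 10587 and 12769 untreated and 24773 and 24159 thiolutin normalised reads (log2 1.07 ± 0.12 SE, adjusted p = 0.0015 by edgeR). RPS23B (YPR132W) had 9449 and 11208 against 19630 and 19288 (log2 0.91 ± 0.12 SE, adjusted p = 0.0021). Both copies were higher in both thiolutin libraries, and on total counts RPS23B no longer passed (log2 0.32, adjusted p = 0.055).

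The copies of RPS0 fell together, as did those of RPS22. RPS0 encodes uS2, which binds at the back of the subunit beside eS21. RPS0A (YGR214W) had 31985 and 36691 against 17814 and 17842 normalised reads (log2 -0.95 ± 0.11 SE, adjusted p = 0.0016 by edgeR), and RPS0B (YLR048W) 28482 and 37338 against 17723 and 17237 (log2 -0.91 ± 0.15 SE, adjusted p = 0.0052). RPS22 encodes uS8 of the body. RPS22A (YJL190C) had 22423 and 24805 against 11536 and 11788 normalised reads (log2 -1.02 ± 0.10 SE, adjusted p = 0.00098), and RPS22B (YLR367W), from a lower level, 7491 and 6449 against 5033 and 5311 (log2 -0.43 ± 0.11 SE, adjusted p = 0.022). The groups did not overlap for any of these 4 genes. The annotated snoRNA gene SNR44 lies within the RPS22B gene, and reads of the host and of the snoRNA could be confused there. Without thiolutin replicate 1 or 2, RPS0B did not pass (adjusted p = 0.061 and 0.067).

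In the other 21 pairs the copies were called in opposite directions for 1 pair, only 1 copy was called for 13 and neither for 7. The test for a difference between copies was made on the ratio itself, log2 of copy A over copy B in each library (0.5 added to each count), which no scaling of the libraries can move. It was fitted by limma over all 61 pairs of the table whose names differ by A and B, with p adjusted over the 61. The ratio changed in 15 of the 24 RPS pairs, beside 67.6% of the other 37 pairs. Of these 37 pairs 33 were RPL pairs, of the large ribosomal subunit, so they do not stand for duplicated genes in general. Copy A gained in 10 and copy B in 5, compared with 8 and 17 among the 25 changed pairs of the other 37. The copy that was lower in untreated cells gained in 9 of the 15, and in 17 of the 25 others. Over all pairs, called or not, it gained in 12 of the 24 RPS pairs and in 24 of the other 37. The same untreated libraries set which copy was lower and entered the change, which favours a gain by that copy. The median size of the change over the 24 pairs was 0.40 on the log2 scale, compared with 0.66 in the other 37.

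RPS9 was the pair with opposite calls and the largest change of ratio. It encodes uS4, which sits at the mRNA entry. RPS9A (YPL081W) gave 8.32% and 7.89% of the reads of both copies untreated and 15.8% and 16.5% with thiolutin, and the log2 ratio rose by 1.13 (95% interval 0.94 to 1.31, adjusted p = 0.0010 by limma). RPS9A itself went from 2632 and 2785 to 4154 and 4222 normalised reads (log2 0.63 ± 0.09 SE, adjusted p = 0.0028 by edgeR), while RPS9B (YBR189W) went from 29007 and 32510 to 22178 and 21381 (log2 -0.50 ± 0.11 SE, adjusted p = 0.011). The minor copy was higher and the major copy lower in both thiolutin libraries. The ratio passed with each library left out in turn, but the single copies did not without thiolutin replicate 1 (adjusted p = 0.057 for RPS9A and 0.17 for RPS9B) or thiolutin replicate 2 (0.061 and 0.21), and on total counts the value of RPS9A was 0.040 (adjusted p = 0.71).

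RPS27 had the next largest change of ratio, and its major copy switched, as it also did in RPS1. It encodes eS27, a zinc-binding protein of the platform. RPS27A (YKL156W) gave 35.8% and 40.4% of the reads of the pair untreated and 54.6% and 56.5% with thiolutin (log2 ratio up by 1.02, 95% interval 0.69 to 1.35, adjusted p = 0.0029 by limma). RPS27B (YHR021C) went from 13854 and 15279 to 7790 and 7578 normalised reads (log2 -0.92 ± 0.10 SE, adjusted p = 0.0012 by edgeR), and RPS27A had 7731 and 10358 against 9380 and 9829, with overlapping groups (log2 0.09 ± 0.16 SE, adjusted p = 0.66). Of the copies, RPS27B passed the test. RPS26, for eS26 at the mRNA exit, was alike in this: RPS26A (YGL189C) gave 67.7% and 62.5% untreated and 78.5% and 78.3% with thiolutin (log2 ratio up by 0.96, 95% interval 0.60 to 1.31, adjusted p = 0.0049 by limma). RPS26B (YER131W) went from 18562 and 23986 to 10362 and 10046 normalised reads (log2 -1.06 ± 0.15 SE, adjusted p = 0.0027 by edgeR), the lowest fold change of the RPS genes, while RPS26A had 38976 and 39960 against 37747 and 36313 (log2 -0.09 ± 0.09 SE, adjusted p = 0.43).

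RPS10 and RPS25 moved in opposite ways. RPS10 encodes eS10 of the beak, and RPS10A gave 48.2% and 53.1% untreated and 63.97% and 64.12% with thiolutin (log2 ratio up by 0.80, 95% interval 0.48 to 1.11, adjusted p = 0.0052 by limma). RPS10B went from 14146 and 14678 to 9724 and 9221 normalised reads (log2 -0.61 ± 0.09 SE, adjusted p = 0.0037 by edgeR), and RPS10A, with 13156 and 16598 against 17267 and 16475, did not pass (log2 0.18 ± 0.14 SE, adjusted p = 0.30). RPS25 encodes eS25 of the head, used by viral internal entry sites. RPS25A gave 87.4% and 83.2% untreated and 76.4% and 76.6% with thiolutin, so the minor B copy gained (log2 ratio -0.85, 95% interval -1.34 to -0.36, adjusted p = 0.015 by limma). RPS25B went from 3973 and 5024 to 6820 and 6678 normalised reads (log2 0.59 ± 0.14 SE, adjusted p = 0.016 by edgeR), while RPS25A had 27566 and 24929 against 22038 and 21848 (log2 -0.26 ± 0.10 SE, adjusted p = 0.073). Without thiolutin replicate 1 or 2, RPS10B (adjusted p = 0.087 and 0.12) and RPS25B (0.12 and 0.11) did not pass.

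The 4 pairs with the smallest changes of ratio were RPS4, RPS14, RPS30 and RPS0. In RPS4, for eS4 of the body, copy A gave 50.9% and 53.1% untreated and 52.5% and 51.9% with thiolutin (log2 ratio change 0.011, 95% interval -0.19 to 0.21). In RPS30, for eS30 of the body, copy A gave 80.7% and 80.5% against 80.3% and 81.3% (0.017, interval -0.16 to 0.19). In RPS0 the change was -0.043 (interval -0.29 to 0.20), although both copies fell. In RPS14, for uS11 of the platform, the untreated libraries themselves differed, with 91.4% and 85.4% from copy A against 88.3% and 89.4%, and the interval ran from -0.84 to 0.87. Neither RPS14A (log2 -0.28 ± 0.10 SE) nor RPS14B (-0.33 ± 0.24 SE), neither RPS30A (0.17 ± 0.09 SE) nor RPS30B (0.16 ± 0.09 SE) passed the test, and of the RPS4 copies RPS4B did (-0.34 ± 0.11 SE, adjusted p = 0.040 by edgeR) and RPS4A did not (-0.34 ± 0.13 SE, adjusted p = 0.077). RPS4B no longer passed with the size factors of DESeq2 (adjusted p = 0.056) or without thiolutin replicate 1 (0.36) or 2 (0.33). On total counts both RPS30 copies turned to -0.42 and -0.43.

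**Figure D3:**
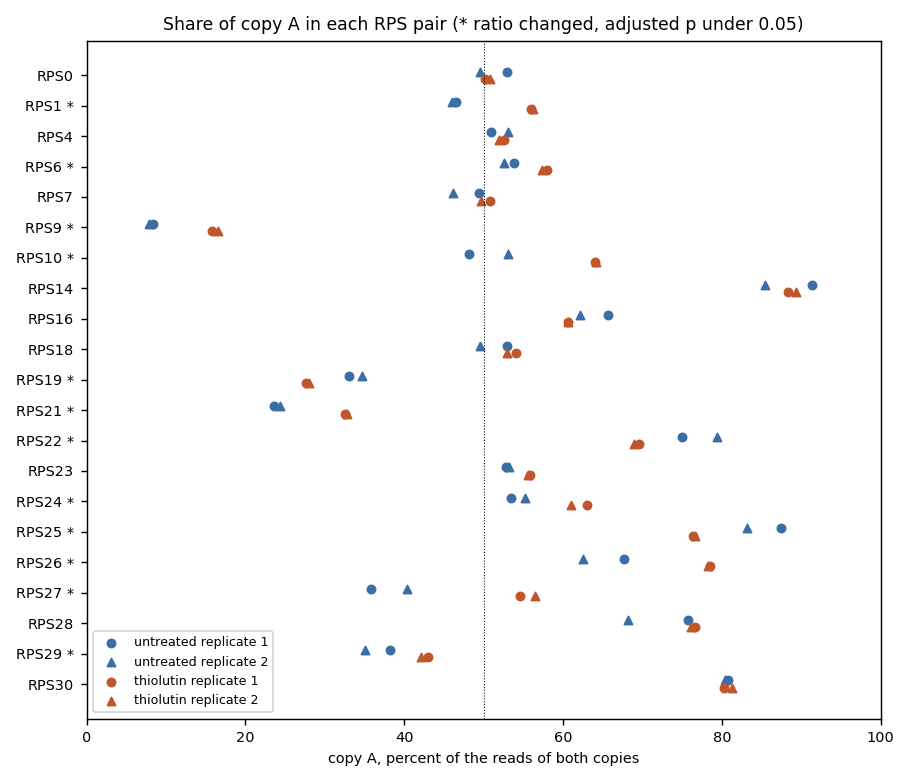
The percent of the reads of both copies that came from copy A (x axis) is plotted for 21 of the 24 RPS pairs in each library, with an asterisk on the pairs whose ratio changed. RPS9A moved from about 8.10% to 16.1% of its pair and RPS27A from 38.1% to 55.5% (means of the libraries), while RPS30A stayed at 80.3% to 81.3% in all 4 libraries.

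Among the other pairs with a changed ratio, copy A gained in RPS1 (46.6% and 46.0% untreated, 55.9% and 56.2% with thiolutin), RPS21 (23.6% and 24.3% against 32.5% and 32.8%), RPS24, RPS29 and RPS6. Copy B gained in RPS22 (copy A 75.0% and 79.4% against 69.6% and 68.9%) and RPS19. Within these pairs RPS21A (log2 0.73), RPS24A (0.59), RPS29A (0.58) and RPS6A (0.41) rose, RPS1B (-0.75), RPS22A and RPS22B fell, and no copy of RPS19 passed the test on its own. RPS28A, whose pair ratio did not pass, rose by log2 0.55. The number of RPS pairs with a changed ratio was 9 without thiolutin replicate 1, with RPS6, RPS19, RPS22, RPS24 and RPS29 among those no longer passing, and 10 without thiolutin replicate 2. The ratio changed in 6 of the 9 pairs with at least 95% identity and in 9 of the other 15.

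The copies were then summed to give the level of RNA for each of the 32 proteins, per kb of coding sequence. Over all 32 families the SD of the log2 level was 0.55 untreated and 0.74 with thiolutin. The highest family stood 4.67-fold above the lowest untreated and 12.2-fold with thiolutin. These are descriptions over families, with no test. In untreated cells RPS26 was the highest with 168728 normalised reads per kb and RPS6 the lowest with 36109. In treated cells RPS20 was the highest with 399474 (142239 untreated) and RPS13 the lowest with 32637. RPS31 followed RPS20 with 222458 (89862 untreated). The next family with thiolutin, RPS30, stood at 135871, below the highest untreated family, so the wider range rested on RPS20 and RPS31. The thiolutin libraries lay wholly above the untreated ones for 14 families and wholly below for 17, and RPS7 overlapped. Taken as single genes, 84.6% of all genes tested had groups that did not overlap. On total counts 3 families (RPS20, RPS31 and RPS23) were above, 26 below and 3 overlapped. On that scale 3605 of all 5937 genes tested were called lower and 965 higher. The sum of RPS27 had 21585 and 25637 untreated and 17170 and 17407 thiolutin normalised reads.

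**Figure D4:**
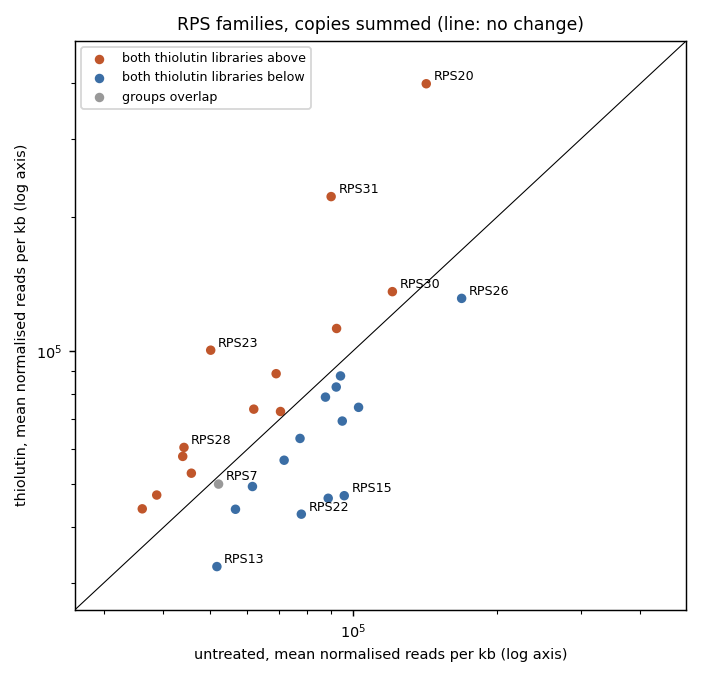
The mean level of 28 of the 32 RPS families with its copies summed, in normalised reads per kb of coding sequence on log axes, is plotted for untreated (x axis) against thiolutin libraries (y axis), with a line of no change. RPS20 and RPS31 lie far above the line and RPS15 and RPS22 below it, on the TMM scale. On total counts RPS20, RPS31 and RPS23 were the families whose thiolutin libraries lay wholly above.

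By place in the subunit, 5 of the 22 genes for head proteins rose and 3 fell (median log2 fold change 0.18), and 7 of the 34 genes for the body and platform rose and 11 fell (median -0.16). Of the 24 genes whose proteins have a bacterial counterpart 5 rose and 9 fell (median -0.30), and of the 32 without one 7 rose and 5 fell (median 0.10). No test was made between these classes. Of all genes tested 31.2% rose and 32.4% fell, and their median was -0.041. On total counts each class had more genes lower than higher, 15 against 2 in the head and 27 against 2 in the body and platform. Of all 5937 genes tested 3605 were lower and 965 higher on that scale.

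The RPS genes carry many of the introns of this genome. In the R64 annotation 36 of the 56 have an intron within the coding sequence, 256 to 551 bases long, and 20 have none. Of those with an intron 6 rose and 9 fell (median log2 fold change -0.05), and of those without 6 rose and 5 fell (0.07). Of all genes tested 31.2% rose and 32.4% fell. On total counts 1 of the 36 with an intron rose and 29 fell, and 3 of the 20 without rose and 13 fell. On that scale 965 of all 5937 genes rose and 3605 fell. The start of an intron, where the spliceosome cuts first, read GTATGT in 24 of the 36, GTACGT in 9 and GTATGA in 3. The branch site letters TACTAAC were found in 33, and those without were RPS9A, RPS9B and RPS21A. The short first exon and the start of the intron (its first 6 bases in capitals) are shown for the pairs with the largest changes of ratio, at chrXVI:404950-405016 (plus strand, RPS9A), chrII:604508-604574 (plus, RPS9B), chrXI:158613-158675 (plus, RPS27A) and chrVIII:148607-148669 (minus, RPS27B).
RPS9A: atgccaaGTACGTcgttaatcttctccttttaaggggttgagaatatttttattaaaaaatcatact
RPS9B: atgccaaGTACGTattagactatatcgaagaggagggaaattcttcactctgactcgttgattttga
RPS27A: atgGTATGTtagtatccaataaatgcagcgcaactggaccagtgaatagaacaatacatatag
RPS27B: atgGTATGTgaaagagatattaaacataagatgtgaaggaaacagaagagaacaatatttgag

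Within each pair the capitals are the same in both copies and the intron that follows is not. For 34 of the 36 intron genes the deposited coordinates cover the first coding exon only, from 3 to 144 bases. The 14 genes whose first coding exon has at most 10 bases had 3693 to 42076 reads in untreated replicate 1. The median untreated level per kb was 70999 for the 18 families whose genes all have an intron and 78600 for the other 14. Which exons the reads were counted over is not given in the sources used here.

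Promoters were searched, on both strands, in the 500 bases before each start codon. The Rap1 letters ACCCNNACA were found in 18 of the 56 RPS promoters (32.1%), in 35 of the 76 promoters of the large subunit RPL genes and in 5.47% of 6000 promoters of protein-coding genes. Of the 12 genes that rose 3 had a match, and of the 14 that fell 5. The proteasome element GGTGGCAAA was in 1 RPS promoter (1.79%, compared with 1.65% of all), the heat shock letters TTCNNGAA in 13 (23.2%, compared with 21.2%) and the PAC letters GATGAG of ribosome assembly genes in 12 (21.4%, compared with 28.3%). A match is a description of letters, not of binding. RPS23B, RPS6A and RPS24A rose and have a match while their other copies have none. RPS23A rose as well, without a match, as did RPS21A, whose copy RPS21B has a match and did not pass. RPS0A and RPS4B fell and have a match while their other copies have none. RPS0B fell as well, without a match, as did RPS1B, whose copy RPS1A has a match and did not pass. The stretches around the Rap1 match (capitals) are shown for RPS10A and RPS10B, a pair that has a match in both copies and changed its ratio, and for RPS23B. They lie at chrXV:866713-866812, chrXIII:732179-732278 and chrXVI:794612-794711, all on the plus strand (R64).
RPS10A: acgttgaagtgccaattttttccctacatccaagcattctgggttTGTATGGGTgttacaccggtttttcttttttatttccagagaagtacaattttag
RPS10B: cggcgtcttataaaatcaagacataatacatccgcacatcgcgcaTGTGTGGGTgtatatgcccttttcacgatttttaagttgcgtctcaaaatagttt
RPS23B: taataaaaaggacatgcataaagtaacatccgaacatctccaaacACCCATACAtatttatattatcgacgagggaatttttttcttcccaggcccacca

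Other genes of the ribosome and its assembly were read in the same fit, in which 31.2% of all genes rose and 32.4% fell. On total counts 965 of all 5937 genes rose and 3605 fell. Of 76 RPL genes 27 rose and 20 fell (median log2 fold change 0.012), and on total counts 9 rose and 45 fell (median -0.58). The leading values were those of RPL41B (2.97 ± 0.18 SE), RPL29 (2.49 ± 0.11 SE) and RPL41A (2.28 ± 0.10 SE), genes for short proteins. Of the 5 stalk genes, whose proteins recruit elongation factors, 4 rose, led by RPP2B (0.68 ± 0.18 SE), and on total counts none did. Of 31 genes for the small subunit of the mitochondrial ribosome 3 rose and 10 fell, among them RSM25 (-1.37 ± 0.20 SE) and MRP4 (-1.05 ± 0.12 SE). On total counts 1 of the 31 rose and 25 fell.

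Of 13 genes for late assembly of the 40S subunit and for escorts of its proteins, 8 rose, none fell and 5 did not pass (edgeR, adjusted p under 0.05), with a median log2 fold change of 0.67. Of all genes 31.2% rose and 63.6% changed in either direction. YAR1, the chaperone of Rps3, had 2218 and 2694 untreated and 28650 and 29915 thiolutin normalised reads (log2 3.58 ± 0.14 SE, adjusted p = 0.00011). RIO2, a kinase of the late 40S precursor, rose by 1.98 ± 0.14 SE and LTV1, which binds Rps3 and Rps20 in that precursor, by 1.90 ± 0.17 SE. TSR2, the escort of Rps26, did not pass (-0.10 ± 0.17 SE), and TSR4, the escort of Rps2, rose by 0.39 ± 0.10 SE. On total counts 6 of the 13 rose and 3 fell, and the value of TSR4 there was -0.20.

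Of 14 initiation factor genes that work on the 40S subunit, 4 rose and 3 fell, beside 31.2% and 32.4% of all genes, and on total counts 3 rose and 9 fell. SUI3, for eIF2 beta, rose by 1.65 ± 0.11 SE and FUN12, for eIF5B, by 1.17 ± 0.17 SE, while RLI1, for the recycling ATPase, fell by 1.11 on the log2 scale. Of 10 genes for partners in stalling and dormancy 5 rose and 1 fell, and on total counts 2 rose and 4 fell. RQT4 and CUE3, of the complex that splits collided ribosomes, rose by 1.27 ± 0.09 SE and 0.95 ± 0.09 SE, and HEL2, the ligase that marks Rps20, fell (-0.84 ± 0.10 SE). Of the 4 ubiquitin genes RPS31 and the polyubiquitin gene UBI4 (1.27 ± 0.09 SE) rose, RPL40A (-0.31 ± 0.09 SE) fell and RPL40B (-0.18 ± 0.14 SE) did not pass.

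Of 16 genes listed as regulators of ribosomal protein genes 3 rose and 8 fell, beside 31.2% and 32.4% of all genes. On total counts 3 of the 16 rose and 12 fell. IFH1, the coactivator, had 973 and 1198 untreated and 3148 and 3208 thiolutin normalised reads (log2 1.55 ± 0.13 SE, adjusted p = 0.00058 by edgeR), and its groups did not overlap. RRP7, of the complex that binds Ifh1, rose by 1.41 ± 0.10 SE and TOD6 by 1.06 ± 0.16 SE. SFP1, an activator, had 2008 and 2061 against 1029 and 930 normalised reads (log2 -1.06 ± 0.09 SE, adjusted p = 0.00069). The others that fell were DOT6 (-0.87), the kinase gene SCH9 (-0.80), TBF1 (-0.77), ABF1 (-0.69), STB3 (-0.68), RAP1 (-0.43) and HMO1 (-0.34). FHL1 did not pass (0.10 ± 0.10 SE).

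Leaving out a library changed the number of RPS genes called. It was 49 without untreated replicate 1, 50 without untreated replicate 2, 10 without thiolutin replicate 1 and 11 without thiolutin replicate 2, while the share of all genes changed went to 83.3%, 84.3%, 34.5% and 35.3%. A group of 1 library was assumed to vary like the other group, and the thiolutin libraries lay closer together than the untreated ones. The 10 and 11 genes were among the 26. An exact two-sided permutation test of 2 against 2 libraries cannot go below p = 0.33 for a single gene.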

How the data were processed

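RNA of 2 untreated and 2 thiolutin-treated cultures was analysed. The deposited counts are whole raw reads that the authors assigned to each gene of build R64, per the labels and column names, from poly(A)-selected paired-end libraries of 3 µg/mL for 3 h or no treatment. For the aligner, the counting program, the strand setting and the handling of reads that fit several genes, no statement was found in the sources used here. The labels speak of more replicates than the columns analysed here. Columns holding the authors' normalised values, log2 fold changes, p-values and FDR were not used, and no raw count column was left unmapped. The table had 6212 rows, of which 3 name no gene and were left out. Of its genes 6206 were paired with the R64 annotation of RefSeq by systematic name.

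Genes with low counts were removed by filterByExpr, libraries were scaled by TMM, and groups were compared by the quasi-likelihood test of edgeR 4.0.16 (R 4.3.3) with Benjamini-Hochberg adjustment over 5937 genes. Normalised reads are counts divided by the effective library size and multiplied by its mean. Copy ratios were fitted with limma 3.58.1 over 61 pairs. Alternatives were the size factors and Wald test of DESeq2 1.42.0, total counts as the scale, no filter, a replicate block, each library left out, a threshold of 0.01, a pseudocount of 5 and an edgeR contrast of copy and treatment. Sequences were read from the RefSeq genome with Biopython 1.88 in Python 3.11.15. The scripts were tested on simulated data.

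The members, the related lists and the tests were chosen with earlier results of these data known. Values were given for all single-copy genes, for the 6 pairs with the largest and the 4 with the smallest change of ratio, for pairs called in opposite directions, for the 5 highest and 5 lowest genes, for up to 3 called genes per related list and for all called regulators. Some genes, pairs and families that this rule takes in are not reported here by name, and they remain in the counts. Genes named beyond these were chosen after their values were seen. Among the a-cell markers 6 of 7 fell, and among the alpha-cell markers 1 of 4 rose and 1 fell. The depth of 17038991 to 30205335 reads in genes gave at least 1520 reads for every RPS gene in every library, so that spread between libraries and not counting limits these values.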

Additional observations from a re-analysis of the deposited data

How the results depend on the processing

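Of the 56 RPS genes 26 changed. The number was 27 with the size factors of DESeq2, 29 with its Wald test, 26 without a filter and 25 with a replicate block (12 higher and 13 lower, and 14 changed pair ratios with RPS6 no longer passing, and RPS4B lost at an adjusted p of 0.087 by edgeR). Replicate numbers did not pair the libraries: same-numbered deviations from the group means had a correlation over genes of 0.016. On total counts 46 RPS genes changed, 4 higher and 42 lower, 13 by a log2 of at least 1, since that scale moved the median of all genes to -0.63. Of all genes 77.0% changed on that scale. At an adjusted p under 0.01 the RPS genes changed were 17, 7 higher and 10 lower, beside 2624 of all 5937 genes, and 11 pair ratios changed. With 1 library left out the RPS genes changed ranged from 10 to 50, those higher from 5 to 29 and those lower from 5 to 30, all genes changed from 2062 to 5009, the changed genes of the related lists from 43 to 149 (97 with all libraries), and the changed pair ratios from 9 to 20. The share of reads in RPS genes was lower with thiolutin by 1.62 percentage points of all reads (difference -1.62), and by 0.35 (difference -0.35) outside the 100 most counted other genes. On total counts the sign of the log2 fold change reversed for 20 of the 56 RPS genes, by the construction of that scale. Among them were RPS3 (-0.30), RPS12 (-0.33), RPS10A (-0.41), RPS25B (-0.0045), RPS27A (-0.50), RPS30A (-0.42) and RPS30B (-0.43). Without untreated replicate 1 the sign turned for 5 RPS genes, and without untreated replicate 2 for 5. RPS14B (-0.64 to 0.056) and RPS27A (-0.10 to 0.32) were among them. Over the fits without 1 library the sign also turned for the ratios of RPS0 (-0.14 to 0.054), RPS4 (-0.052 to 0.074) and RPS30 (-0.028 to 0.061). The ratio of RPS14 turned as well, from -0.41 without untreated replicate 2 to 0.44 without untreated replicate 1. The cause was not tested. The edgeR contrast of copy and treatment gave 15 changed ratios, with RPS23 in place of RPS29, and a pseudocount of 5 or no filter gave the same 15.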
